A study of Oryza sativa Japonica Group with 6 samples.

Results

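The genes described here encode 5 water and solute channels of rice: the vacuolar aquaporins OsTIP1;1, OsTIP1;2, OsTIP2;2 and OsTIP4;1, and the silicon channel OsLsi1, a member of the NIP subfamily. They were taken as a list of 5 loci of which each had to reach 1 RPKM (a read number scaled to gene length and library size) in at least 2 of the 6 libraries. All 5 met this threshold, among 19438 loci that met it of 55800 in the table. The table describes them as probable aquaporins TIP1-1, TIP1-2, TIP2-2 and TIP4-1 and as aquaporin NIP2-1, the protein name of Lsi1, so the names and the descriptions match. Other genes of the family are called by the names in the table's descriptions, except the silicon channel OsLsi6, which the table describes as NIP2-2, and the silicon carrier OsLsi2, for which it has no description.

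RNA came from the shoots (stems with leaves) of rice seedlings of the cultivar Lijiangxintuanheigu (LTH), a japonica type, at an age of 2 weeks. They had been kept for 24 h at 11, 13 or 25 °C. Each temperature has 2 biological replicates, and the libraries at 25 °C serve as the comparison for cold. All seedlings were of the same cultivar, and the labels name no mutant, transgene or chemical. The labels do not say how many seedlings went into a library or at what hour they were collected.

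Aquaporins are membrane channels that let water, and in some subfamilies small uncharged solutes, pass along their gradients. TIPs sit mainly in the membrane of the vacuole, the tonoplast, and allow the large central vacuole of a plant cell to exchange water quickly with the cytosol. NIPs are named after nodulin 26 of legume nodules, and several of them carry metalloids. OsLsi1 takes up silicic acid into rice roots, where it has mostly been studied.

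The recovered library totals lay between 16.0 and 18.8 M reads, and the values of the 5 genes rest on 19 to 6551 reads each. The tissue label was checked with 9 root and 5 leaf marker loci. None of the 9 root loci passed the threshold, and their summed level stayed between 0.646 and 2.44 RPKM in all libraries, with 5 or 6 of them listed at 0 in both libraries of a temperature. Of these 9, 5 are written in capitals in the table, and none of the 23650 loci so written has a value above 0 in any replicate 2 library, so the root check rests mainly on the 4 others. The 5 leaf markers all reached the threshold, and summed to between 33446 and 47741 RPKM at 25 °C. The sum was between 20003 and 20484 RPKM at 13 °C and between 5285 and 6928 RPKM at 11 °C. Most of the sum at 25 °C was OsRCA, the gene for Rubisco activase, at 27017 and 36629 RPKM. OsRCA was at 4147 and 4905 RPKM at 13 °C, and at 1015 and 650 RPKM at 11 °C. The lower sum at 13 than at 25 °C thus rests on that gene. Of the 5, 3 fell at 11 against 25 °C and 4 at 11 against 13 °C, beside 21.4% and 18.2% of all loci. At 13 against 25 °C 2 rose and 2 fell, beside 26.3% and 17% of all loci. The part of this lower sum in the falls described below was not tested.

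The 4 vacuolar channels did not respond to cold in the same way. At 11 °C OsTIP1;1, OsTIP1;2, OsTIP2;2 and the silicon channel OsLsi1 were lower than at 25 °C, while OsTIP4;1 was far higher. At 13 °C OsTIP1;2 and OsTIP4;1 were higher than at 25 °C and OsTIP2;2 was lower, while OsTIP1;1 and OsLsi1 did not pass the test. Levels are mean RPKM ± SD with n = 2. Differences are differences of log2(RPKM + 1) ± standard error, which understates changes of low genes, and p-values come from limma with Benjamini-Hochberg adjustment over all 19438 loci. A gene is said to rise or fall when its adjusted p is below 0.05. In these whole shoots, fewer cells that express a gene and less of its RNA per cell cannot be told apart.

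Set against the whole table, 4 of the 5 genes fell at 11 against 25 °C, where 21.4% of all loci fell, and 1 rose, where 28.6% of all loci rose. At 13 against 25 °C, 2 rose and 1 fell, beside 26.3% and 17% of all loci. At 11 against 13 °C, 1 rose and 3 fell, beside 17.2% and 18.2% of all loci. OsLsi1, counted among the falls at 11 °C, passed the threshold only through 25 and 13 °C, where it was high. The 2 libraries of each temperature did not overlap for all 5 genes at 11 against 25 °C (1 higher and 4 lower, beside 41.7% and 32.9% of all loci) and at 11 against 13 °C (1 and 4, beside 32.8% and 35.5%). At 13 against 25 °C this held for 2 higher and 2 lower genes, beside 40.5% and 29.8% of all loci. The median difference of the 5 genes was -2.09 at 11 against 25 °C, 0.32 at 13 against 25 °C and -2.83 at 11 against 13 °C. The medians over all loci tested were 0.13, 0.12 and -0.02. The 5 genes were chosen with earlier results of these data known, so these counts and medians are a description only. These cold comparisons share the 25 °C libraries, so they are not independent of each other.

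**Figure D1:**
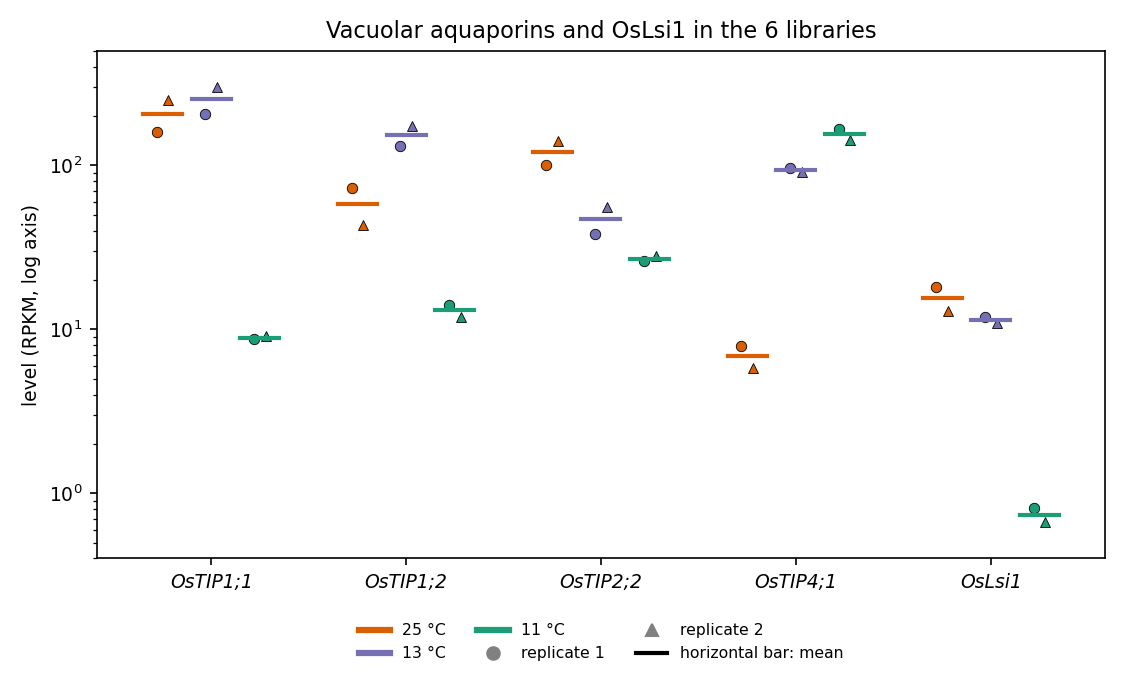
Level in RPKM on a log axis (vertical) of the 5 genes (horizontal) in each library, with colours for temperature, circles for replicate 1, triangles for replicate 2 and bars for the mean of 2 libraries. OsTIP1;1 and OsLsi1 stay near their 25 °C level at 13 °C and are more than 10-fold lower at 11 °C, while OsTIP4;1 is 13.7-fold higher at 13 °C and 22.6-fold higher at 11 °C.

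OsTIP1;1 (LOC_Os03g05290, chromosome 3, 2562732 to 2564648, minus strand) belongs to the TIP1 group, whose members are typical of large vacuoles in vegetative cells. Its level was 159 and 250 RPKM in the replicates at 25 °C, 207 and 301 RPKM at 13 °C, and 8.69 and 9.08 RPKM at 11 °C. The ranges at 25 and 13 °C overlapped, and both libraries at 11 °C lay far below all the others. The mean fell from 205 ± 64.4 RPKM at 25 °C to 8.88 ± 0.275 RPKM at 11 °C, 23.1-fold lower (-4.34 ± 0.29, adjusted p = 3.09e-05). At 13 °C the mean was 254 RPKM, and the difference from 25 °C of 0.32 ± 0.29 did not pass the test (adjusted p = 0.409). Without replicate 1 at 25 °C that difference was -0.01, so its sign rests on this library. Between 13 and 11 °C the level fell 28.6-fold (-4.66 ± 0.29, adjusted p = 7.57e-05). Only 0.072% of the loci tested had a more negative difference in that comparison.

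OsTIP1;2 (LOC_Os01g74450, chromosome 1, 43115742 to 43117231, minus strand) is the other TIP1 gene of rice. It was at 72.3 and 43.4 RPKM at 25 °C, 131 and 174 RPKM at 13 °C, and 14.1 and 11.96 RPKM at 11 °C. No library of a temperature overlapped with those of another, and 13 °C was the highest. OsTIP1;2 rose 2.63-fold from 57.9 ± 20.4 RPKM at 25 °C to 152 ± 30.1 RPKM at 13 °C (1.41 ± 0.29, adjusted p = 0.00536). It fell 4.44-fold to 13.0 ± 1.54 RPKM at 11 °C (-2.03 ± 0.29, adjusted p = 0.000803). The step from 13 to 11 °C was an 11.7-fold fall (-3.44 ± 0.29, adjusted p = 0.000196). Its changes against 25 °C thus had opposite signs at the 2 low temperatures. Within replicate 1 the difference at 13 against 25 °C was 0.85, and within replicate 2 it was 1.97. The authors' handling of reads that match both TIP1 genes is not given in the sources used here, so a share of such reads could be split between them.

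OsTIP2;2 (LOC_Os06g22960, chromosome 6, 13407319 to 13408859, plus strand) belongs to the TIP2 group, whose members in Arabidopsis also pass ammonia. Its level was 99.999 and 140 RPKM at 25 °C, 38.0 and 55.6 RPKM at 13 °C, and 26.0 and 28.0 RPKM at 11 °C. The 3 temperatures did not overlap, and the level was lower at each lower temperature. The mean fell 2.56-fold from 120 ± 28.4 to 46.8 ± 12.4 RPKM at 13 °C (-1.34 ± 0.27, adjusted p = 0.00457). At 11 °C it was 27.0 ± 1.44 RPKM, 4.45-fold lower than at 25 °C (-2.09 ± 0.27, adjusted p = 0.000456). Between 13 and 11 °C the difference of -0.75 ± 0.27 did not pass (adjusted p = 0.0598). It passed under 4 of 14 alternatives, among them median ratio scaling (adjusted p = 0.0210), quantile scaling (0.0225) and leaving out replicate 2 at 25 °C (0.0494).

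OsTIP4;1 (LOC_Os05g14240, chromosome 5, 8000545 to 8002994, plus strand) was the vacuolar channel gene of the list that rose at both low temperatures. It was at 7.87 and 5.81 RPKM at 25 °C, 95.7 and 91.3 RPKM at 13 °C, and 167 and 142 RPKM at 11 °C. The 3 temperatures did not overlap, and the level was higher at each lower temperature. The mean rose 13.7-fold from 6.84 ± 1.45 to 93.5 ± 3.16 RPKM at 13 °C (3.60 ± 0.22, adjusted p = 2.8e-05). It rose 22.6-fold to 155 ± 18.0 RPKM at 11 °C (4.32 ± 0.22, adjusted p = 1.29e-05). At 11 against 25 °C, 0.576% of the loci tested had a larger difference. The further step from 13 to 11 °C was 1.66-fold (0.72 ± 0.22, adjusted p = 0.0386). At 13 °C, leaving out replicate 1 (adjusted p = 0.13) or replicate 2 (0.165) ended that call. At 11 °C, leaving out replicate 1 (0.192) or replicate 2 (0.0898) did the same. It was also lost with no filter (adjusted p = 0.0596) and with median ratio scaling (adjusted p = 0.0705).

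OsLsi1 (LOC_Os02g51110, chromosome 2, 31266245 to 31269960, plus strand) was measured at 18.1 and 12.9 RPKM at 25 °C, 11.9 and 10.9 RPKM at 13 °C, and 0.814 and 0.668 RPKM at 11 °C. The libraries at 13 °C lay just below those at 25 °C, and both at 11 °C were below 1 RPKM. OsLsi1 thus passed the threshold only through 25 and 13 °C, the temperatures at which it was high. The 11 °C values rest on 21 and 19 reads, with 95% Poisson intervals of 0.504 to 1.24 and 0.402 to 1.04 RPKM that cover counting error only. The mean fell 20.9-fold from 15.5 ± 3.67 RPKM at 25 °C to 0.741 ± 0.103 RPKM at 11 °C (-3.23 ± 0.26, adjusted p = 5.83e-05). At 13 °C it was 11.4 ± 0.649 RPKM, and the difference from 25 °C of -0.39 ± 0.26 did not pass (adjusted p = 0.253). Between 13 and 11 °C it fell 15.4-fold (-2.83 ± 0.26, adjusted p = 0.000246). With a pseudocount of 0.1 in place of 1 the fall at 11 against 25 °C was -4.20, since a level below 1 RPKM is compressed by the larger pseudocount.

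The 9 root markers were too low to be tested singly. Their summed level was 1.79 to 2.44 RPKM at 25 °C, 1.02 to 1.57 RPKM at 13 °C and 0.646 to 1.10 RPKM at 11 °C. The range at 25 °C lay above those at 13 and 11 °C, which overlapped each other, so the markers were lower in the cold as well. The part of root tissue in the result for OsLsi1 was not tested. In each library at 25 and 13 °C the level of OsLsi1 alone exceeded the summed level of the 9 markers. At 11 °C it did so in replicate 1 (0.814 against 0.646 RPKM) but not in replicate 2 (0.668 against 1.10 RPKM). The sum rests mainly on the 4 low markers not in capitals, so this comparison cannot show how much root tissue was present. OsLsi2, the efflux carrier that works beside OsLsi1 in roots, is among these markers and was listed at 0 in all 6 libraries, but it is among the loci in capitals. OsLsi6 (LOC_Os06g12310), the related NIP that unloads silicic acid from the leaf xylem, was at 122 and 77.6 RPKM at 25 °C, 118 and 106 RPKM at 13 °C, and 84.1 and 106 RPKM at 11 °C. Its temperatures overlapped, and its difference at 11 against 25 °C was -0.04 ± 0.27 (adjusted p = 0.905).

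**Figure D2:**
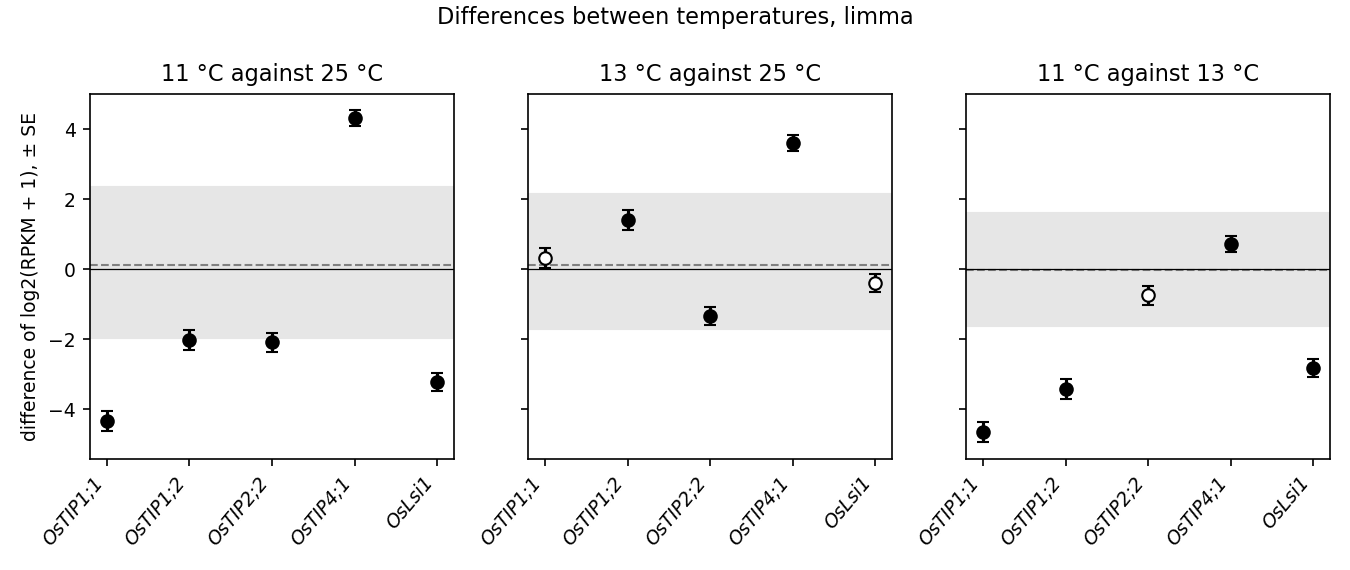
Difference of log2(RPKM + 1) between temperatures (vertical, points with standard error bars from limma, 2 libraries per temperature) for the 5 genes (horizontal) in 3 comparisons; filled points passed an adjusted p of 0.05. The grey band spans the 5 to 95 percentiles of all 19438 loci and the dashed line is their median. At 11 against 25 °C OsTIP1;1, OsTIP1;2, OsTIP2;2 and OsLsi1 lie below the band. OsTIP1;1, OsTIP1;2 and OsLsi1 also lie below it at 11 against 13 °C, and OsTIP4;1 lies above it in both comparisons with 25 °C.

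The order of the 4 vacuolar channel genes by level changed with temperature. RPKM is scaled to gene length, so levels of different genes can be set side by side. At 25 °C the order in both libraries was OsTIP1;1, OsTIP2;2, OsTIP1;2 and OsTIP4;1, from the highest to the lowest. At 13 °C it was OsTIP1;1, OsTIP1;2, OsTIP4;1 and OsTIP2;2, and at 11 °C it was OsTIP4;1, OsTIP2;2, OsTIP1;2 and OsTIP1;1. In each temperature the ranges of the 4 genes did not overlap, and at 11 °C the gene highest at 25 °C had become the lowest.

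The summed level of these 4 genes was 340 and 440 RPKM at 25 °C, 472 and 621 RPKM at 13 °C, and 216 and 191 RPKM at 11 °C. The temperatures did not overlap, with 13 °C the highest and 11 °C the lowest. The means were 390 ± 70.9, 546 ± 106 and 204 ± 17.8 RPKM. The sums are given as a description, with no test. An exact two-sided permutation test of 2 against 2 libraries could not give a p below 0.3333. Without OsTIP1;1 the sums were 185 ± 6.54, 293 ± 39.4 and 195 ± 18.1 RPKM, so the lower sum at 11 than at 25 °C rests on that gene.

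At 25 °C OsTIP4;1 made up 2.32% and 1.32% of the summed level, at 13 °C 20.3% and 14.7%, and at 11 °C 77.4% and 74.3%. The share of OsTIP1;1 was 46.9% and 56.9% at 25 °C, then 43.9% and 48.4% at 13 °C, but only 4.02% and 4.75% at 11 °C. OsTIP1;1 was thus the leading share at 25 and 13 °C and OsTIP4;1 at 11 °C, in both libraries. The ratio of OsTIP4;1 to OsTIP1;1 was 0.0494 and 0.0232 in the 25 °C libraries, 0.462 and 0.304 in the 13 °C libraries, and 19.3 and 15.6 in the 11 °C libraries.

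**Figure D3:**
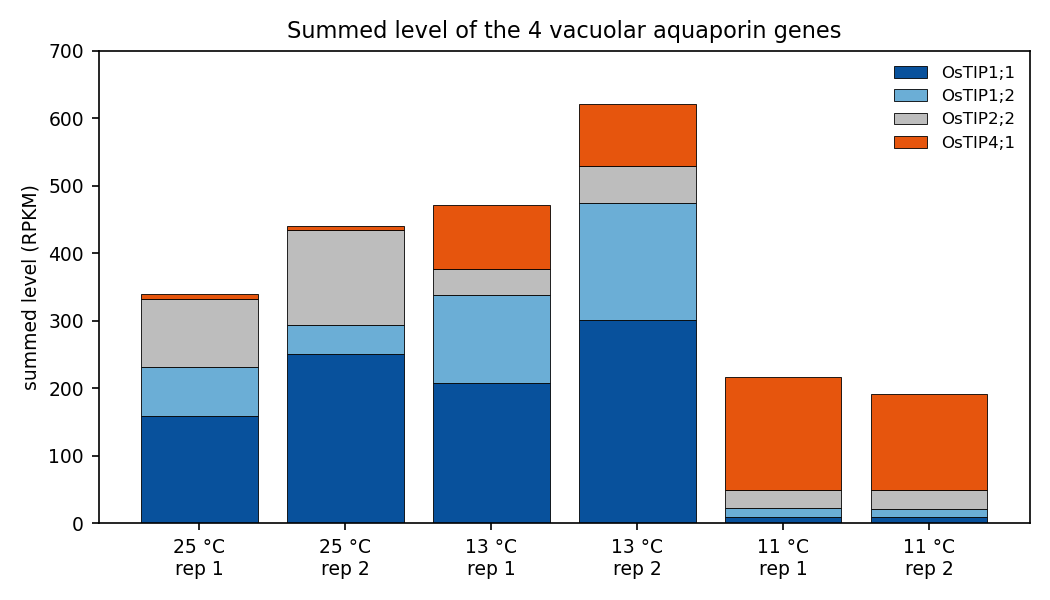
Summed level in RPKM (vertical) of OsTIP1;1, OsTIP1;2, OsTIP2;2 and OsTIP4;1 in each library (horizontal), stacked by gene. The sum is highest in the 13 °C libraries (472 and 621 RPKM), and OsTIP4;1 makes up 77.4% and 74.3% of it at 11 °C.

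The wider lists of TIP and NIP genes hold 15 loci besides the 5 described, of which 6 passed the threshold. The 9 others reached at most 1.03 RPKM in any library, and 2 of them were listed at 0 throughout. Of the 9, 3 are written in capitals. TIP4-3 (LOC_Os01g13120, chromosome 1, 7297672 to 7298971) is of the same TIP4 subgroup as OsTIP4;1 and moved the other way. It was at 35.6 and 67.1 RPKM at 25 °C, 2.52 and 4.82 RPKM at 13 °C, and 3.04 and 6.88 RPKM at 11 °C. Both cold temperatures lay well below 25 °C and overlapped each other. It fell 14.0-fold at 13 °C (-3.46 ± 0.44, adjusted p = 0.000548) and 10.4-fold at 11 °C (-3.14 ± 0.44, adjusted p = 0.000699). TIP4-2, whose start lies 3396 bases beyond the end of TIP4-3, stayed at or below 0.651 RPKM in all libraries. Adding TIP4-3 to the sum of vacuolar channels gave 441, 550 and 209 RPKM at 25, 13 and 11 °C, in the same order.

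Of the NIP genes other than OsLsi1 and OsLsi6, 4 passed the threshold. NIP3-1 (LOC_Os10g36924), a boric acid channel, was at 8.11 and 6.48 RPKM at 25 °C, 10.7 and 7.16 RPKM at 13 °C, and 3.35 and 0.790 RPKM at 11 °C. Both libraries at 11 °C lay below the rest, and it fell by 1.56 ± 0.42 (adjusted p = 0.0160). That call was lost without replicate 1 at 25 °C (adjusted p = 0.0839), without replicate 2 at 11 °C (0.0895), where the difference was -0.92, and with no filter (0.0590). Its fall of -1.81 at 11 against 13 °C (adjusted p = 0.0126) was lost without replicate 1 at 13 °C (0.0635), without replicate 2 at 11 °C (0.0613) and with no filter (0.0533).

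NIP1-3 (LOC_Os05g11560) was at 3.47 and 3.36 RPKM at 25 °C, 2.30 and 2.62 RPKM at 13 °C, and 5.51 and 5.91 RPKM at 11 °C. Its temperatures did not overlap, and 11 °C was the highest. It rose between 13 and 11 °C (0.96 ± 0.23, adjusted p = 0.0135), a call lost without either replicate at 13 °C or at 11 °C (adjusted p = 0.0556 to 0.0889). The differences of 0.60 at 11 and -0.35 at 13 against 25 °C did not pass (adjusted p = 0.0563 and 0.247). With median ratio scaling both passed (0.48 and -0.48, adjusted p = 0.0421 and 0.0470). The difference at 11 °C also passed with no trend (adjusted p = 0.0399), and that at 13 °C with quantile scaling (-0.60, adjusted p = 0.0235).

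NIP1-2 (LOC_Os01g10600) and NIP4-1 (LOC_Os01g02190) reached 1 RPKM only at 25 °C, so they passed the threshold only through the temperature at which they were high. NIP1-2 was at 7.90 and 4.91 RPKM at 25 °C and between 0.318 and 0.913 RPKM in the cold libraries. NIP4-1 was at 1.80 and 1.51 RPKM at 25 °C and between 0.113 and 0.450 RPKM in the cold libraries. At 11 against 25 °C the differences were -2.31 ± 0.29 and -0.89 ± 0.17 (adjusted p = 0.000427 and 0.00303). At 13 against 25 °C they were -2.19 ± 0.29 and -1.23 ± 0.17 (adjusted p = 0.000668 and 0.000778).

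The SIP subfamily, small channels found in the endoplasmic reticulum in Arabidopsis, has 2 genes in the table. SIP1-1 (LOC_Os01g08660) was at 254 and 84.3 RPKM at 25 °C, 32.0 and 30.2 RPKM at 13 °C, and 30.5 and 25.0 RPKM at 11 °C. Its 25 °C libraries differed 3-fold from each other and were both above all cold libraries. It fell by 2.37 ± 0.45 at 11 °C (adjusted p = 0.00318) and also fell at 13 °C (-2.201 ± 0.45, adjusted p = 0.00522). SIP2-1 (LOC_Os03g20410) fell from 11.1 ± 1.93 to 4.41 ± 0.0331 RPKM at 11 °C (-1.15 ± 0.25, adjusted p = 0.00637), and at 13 °C its difference was -0.65 ± 0.25 (adjusted p = 0.0693). With median ratio (-0.81) or quantile scaling (-0.79) the 13 °C difference passed, at an adjusted p = 0.0186 in each.

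**Figure D4:**
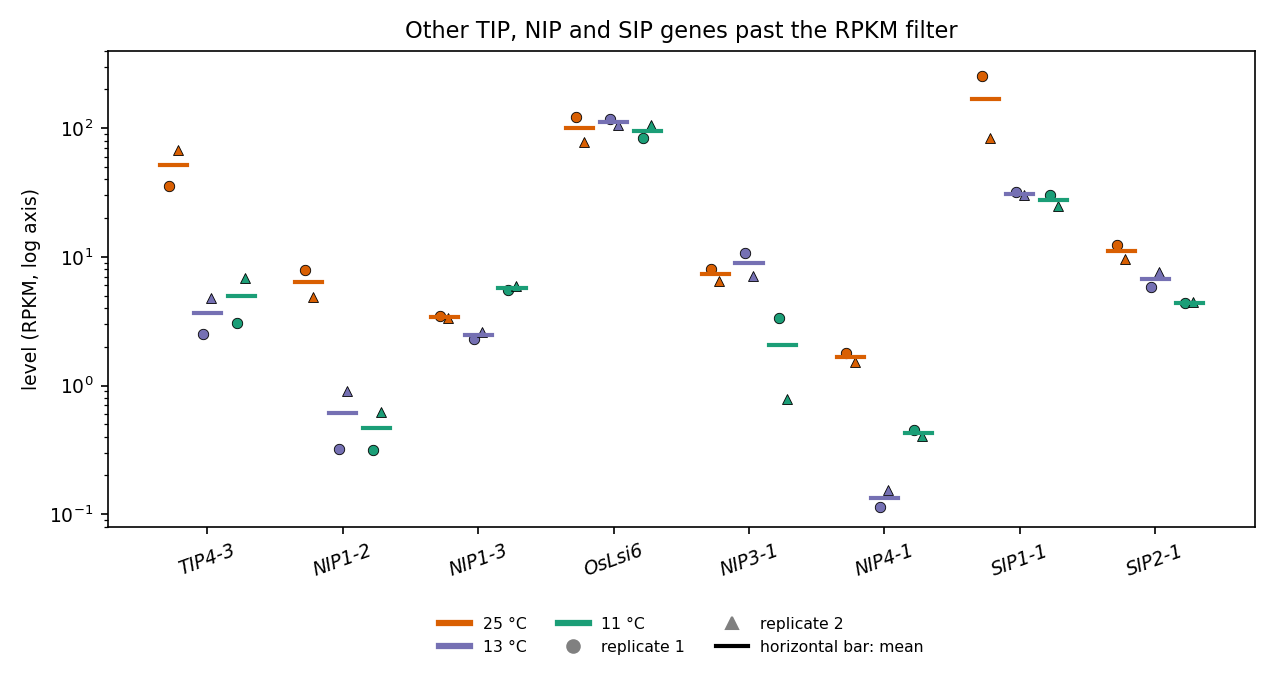
Level in RPKM on a log axis (vertical) of the other TIP, NIP and SIP genes past the threshold (horizontal) in each library, with colours for temperature, circles and triangles for replicates 1 and 2 and bars for the mean of 2 libraries. TIP4-3 is at 35.6 and 67.1 RPKM at 25 °C and below 7 RPKM in the cold libraries, whereas OsLsi6 overlaps between temperatures.

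Among all loci described as aquaporins, 19 besides the 5 genes were tested. At 11 against 25 °C, 3 of the 19 rose, 13 fell and 3 did not pass, beside 28.6% and 21.4% of all loci, with a median of -1.15. At 13 against 25 °C, 5 rose, 8 fell and 6 did not pass, beside 26.3% and 17% of all loci, with a median of -0.35. Some of these loci passed the threshold through the temperature at which they were high. The 19 include the other TIP, NIP and SIP genes given above and the plasma membrane aquaporins (PIP), so these counts are not independent. On the PIP list, 7 of 9 tested genes fell and 1 rose at 11 against 25 °C, beside 21.4% and 28.6% of all loci. At 13 against 25 °C, 4 rose and 4 fell, beside 26.3% and 17% of all loci. Some of the 4 PIP genes that rose reached 1 RPKM only at 13 °C, so they passed the threshold only through that temperature.

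The proton pumps of the tonoplast, which energise transport across the same membrane, were taken from descriptions of the V-type ATPase and the vacuolar pyrophosphatase. Of 28 tested loci, 1 rose, 6 fell and 21 did not pass at 11 against 25 °C, beside 28.6% and 21.4% of all loci, with a median difference of -0.08. At 13 against 25 °C, 5 rose, 4 fell and 19 did not pass, beside 26.3% and 17% of all loci, with a median of -0.02. The pyrophosphatase gene LOC_Os06g08080 was at 0.501 and 0.587 RPKM at 25 °C, 6.83 and 7.61 RPKM at 13 °C, and 9.83 and 9.51 RPKM at 11 °C. It was below 1 RPKM in both libraries at 25 °C, so it passed the threshold only through the cold temperatures at which it was high. This gene rose by 2.41 ± 0.23 at 13 °C (adjusted p = 0.000154) and 2.79 ± 0.23 at 11 °C (adjusted p = 6.49e-05). LOC_Os01g12260, for V-ATPase subunit E, had the largest falls against 25 °C (-1.43 at 11 °C and -2.09 at 13 °C, adjusted p = 0.00225 and 0.000455). It reached 1 RPKM only at 25 °C (2.67 and 4.78 RPKM), so it passed the threshold only through the temperature at which it was high. LOC_Os01g51380, for subunit B2, averaged 4.16 RPKM at 25 °C, 18.9 RPKM at 13 °C and 5.38 RPKM at 11 °C. It rose at 13 against 25 °C (1.97, adjusted p = 0.00145) and fell at 11 against 13 °C (-1.63, adjusted p = 0.00511), while its difference of 0.34 at 11 against 25 °C did not pass (adjusted p = 0.383).

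For each of the 5 genes, the described loci with the most similar pattern were found by Pearson's r of log2(RPKM + 1) over the 6 libraries. The search covered 7223 other loci whose temperature means differed by at least 1 on the log2 scale. With 6 libraries in 3 temperatures such values are high for many loci: between 11 and 90 loci per gene reached 0.99. They are given as a description.

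Nearest to OsTIP1;1 were LOC_Os03g18940 (exonuclease DPD1, which degrades organelle DNA in Arabidopsis, r = 0.9995), LOC_Os05g45810 (calcineurin B-like protein 4, a calcium sensor, r = 0.9995) and LOC_Os02g42920 (protein O-glucosyltransferase 1, r = 0.999). DPD1 was at 19.3 and 24.3 RPKM at 25 °C, 23.2 and 28.1 RPKM at 13 °C, and 4.42 and 4.67 RPKM at 11 °C. Nearest to OsTIP1;2 was LOC_Os01g25386 (ABC transporter C family member 4, r = 0.997). This transporter gene was at 137 and 98.9 RPKM at 25 °C, 196 and 211 RPKM at 13 °C, and 57.7 and 46.3 RPKM at 11 °C. It was followed by LOC_Os01g67370, an uncharacterized protein (r = 0.995), and LOC_Os04g59120, a WAT1-related protein (r = 0.994).

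Nearest to OsTIP2;2 were LOC_Os03g23980, an uncharacterized chloroplast protein (r = 0.999), LOC_Os10g32770 (WD repeat-containing protein 26, r = 0.998) and LOC_Os06g45330 (endonuclease V, r = 0.997). Nearest to OsTIP4;1 was the plasma membrane aquaporin gene PIP2-7 (LOC_Os09g36930, r = 0.999). PIP2-7 was at 6.32 and 4.59 RPKM at 25 °C, 332 and 366 RPKM at 13 °C, and 688 and 611 RPKM at 11 °C. LOC_Os03g43430 (TATA, part of a protein translocase of the thylakoid, r = 0.999) and LOC_Os02g40460 (mitochondrial polyribonucleotide nucleotidyltransferase 2, r = 0.998) followed.

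Nearest to OsLsi1 were LOC_Os04g53930 (organic cation/carnitine transporter 4, r = 0.99995), LOC_Os02g46660 (an uncharacterized membrane protein, r = 0.9997) and LOC_Os05g51240 (probable esterase KAI2, r = 0.999). The carnitine transporter gene was at 18.0 and 12.4 RPKM at 25 °C, 11.3 and 10.3 RPKM at 13 °C, and 0.502 and 0.410 RPKM at 11 °C. At 25 and 13 °C its values lay close to those of OsLsi1, and at 11 °C they were lower than those of OsLsi1 in both libraries.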

How the data were processed

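RNA-seq of 6 libraries (3 temperatures, 2 replicates each) was analysed from the authors' deposited RPKM table. Reads were aligned with TopHat2 2.0.12, per the submitters' processing notes. How reads were counted, whether strand was used, how shared reads were treated and on which build and annotation is not stated in the labels. Coordinates are those of the deposited table. The 5 genes and the gene lists were chosen with earlier results of these data known.

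The 19438 loci that reached 1 RPKM in 2 or more of the 6 libraries were analysed as log2(RPKM + 1) in limma 3.58.1 (R 4.3.3), as deposited, in 1 model of all libraries with 3 contrasts and a trend of the variance on the mean. The model was tested on simulated data whose libraries varied independently. Libraries of the same replicate number deviated together in the deposited data, so that test does not cover this feature. Library totals were recovered from loci whose span equals the counted length, and reads per gene as whole numbers within 0.02. Alternatives were another pseudocount, no filter or a mean of at least 5 RPKM, median ratio or quantile scaling, a replicate block, no trend, only the libraries compared, and each library left out. The rule for genes named beyond the 5 took every gene of the TIP, NIP, SIP and silicon lists, the 3 nearest patterns per gene and the proton pumps with the largest changes. Of the listed genes under the threshold, TIP4-2 and OsLsi2 alone are named, with levels, and the others are not named singly. No sequence is shown.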

Additional observations from a re-analysis of the deposited data

How the results depend on the processing

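Of 15 comparisons of the 5 genes, 12 kept their direction and their side of the threshold under all 14 alternatives. The exceptions were OsTIP1;1 at 13 against 25 °C, and OsTIP2;2 and OsTIP4;1 at 11 against 13 °C. OsTIP1;1 at 13 against 25 °C ranged from -0.0051 (without replicate 1 at 25 °C) to 0.64 when a library was left out. OsTIP2;2 at 11 against 13 °C passed with median ratio scaling (-0.73), quantile scaling (-0.84) and the replicate block (-0.75, adjusted p = 0.00468), and ranged from -1.02 to -0.48 when a library was left out. OsTIP4;1 did not pass there with no filter (0.72) or median ratio scaling (0.74), and ranged from 0.60 to 0.83 when a library was left out. The cause was not tested. Of 33 comparisons of other named genes, 20 were the same throughout. OsLsi6 at 11 against 25 °C turned to 0.0539 with quantile scaling. When a library was left out, signs also turned for OsLsi6 at 11 against 25 °C (-0.37 to 0.28) and 13 against 25 °C (-0.13 to 0.52), NIP1-2 (-0.39 to 0.15) and TIP4-3 (-0.16 to 0.80) at 11 against 13 °C, NIP3-1 at 13 against 25 °C (-0.0165 to 0.51) and LOC_Os01g51380 at 11 against 25 °C (-0.0042 to 0.69). None of these had passed.

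Called loci numbered 9719, 8414 and 6884 at 11 against 25, 13 against 25 and 11 against 13 °C. With a mean of at least 5 RPKM, where fewer loci were tested, they were 6220, 5368 and 4238. Leaving out a library gave 7009 to 9227, 5949 to 7973 and 4109 to 6976; for the last comparison the count was 4537 or 4249 without replicate 1 or 2 of the 13 °C group and 4109 without replicate 2 of the 11 °C group. Median ratio scaling moved the median of all loci at 11 against 25 °C from 0.13 to 0.01. Relative to the median of all loci, OsTIP1;1 differed by -4.47, OsTIP1;2 by -2.15, OsTIP2;2 by -2.22, OsTIP4;1 by 4.20 and OsLsi1 by -3.35 at 11 against 25 °C. Quantile scaling moved the higher share of calls at 13 against 25 °C from 60.8% to 49.9%. The summed vacuolar channel level without OsTIP1;1 was 185 RPKM at 25 °C and 293 RPKM at 13 °C; adding TIP4-3 was chosen after seeing the data.

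Libraries of the same replicate number deviated together (r = 0.61 to 0.71 across loci between temperatures), but the labels do not say what a number marks. The replicate block raised the counts to 13479, 12228 and 11351, and of the 5 genes it changed the call of OsTIP2;2 at 11 against 13 °C only. Among the other named genes it made NIP1-3 at 11 against 25 °C (adjusted p = 0.00847), SIP2-1 at 13 against 25 °C (0.0175) and LOC_Os01g12260 at 11 against 13 °C (0.0430) pass. At this depth OsLsi1 at 11 °C rests on about 20 reads a library.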
